A study of Homo sapiens with 12 samples.

Results

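Gene expression of L428 cells resistant to ixazomib was compared with that of L428 cells exposed to 71.25 nM ixazomib for 24 h, on 3 arrays of each, 6 of the 12 arrays of the study, over all 14953 genes detected on at least 3 of the 12 arrays. Of these, 577 were detected on no 71.25 nM array but on a resistant array, and 453 the other way round. The samples were chosen by their titles, with no use of measured values. L428 is a Hodgkin lymphoma cell line, and ixazomib is an oral boronate inhibitor of the chymotrypsin-like site of the proteasome. The study also holds 3 control arrays and 3 arrays of cells given 25 nM for 24 h. Their levels are set beside the compared groups without a test against control, since any comparison with control would share its arrays. These arrays also enter the detection filter, the normalisation and the estimate of spread behind the p-values. With only the 6 compared arrays normalised and fitted, 2757 genes passed the limma threshold, against 3222. For resistant cells no dose is recorded, nor whether ixazomib was in the medium at harvest. Their samples share 1 title apart from the replicate number and are taken as 1 resistant line, with its clonality not given. Of the 71.25 nM arrays, the sample numbered 1 carries 71.25 nM in its title and treatment field but 25 nM in its description. Nothing in the labels says that the replicates of either compared group came from separate cultures, so the p-values rest on sample-to-sample spread that may be only technical.

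The proteasome degrades proteins tagged with ubiquitin. When it is blocked, misfolded proteins build up, heat shock factor 1 switches on chaperone genes, NRF1 switches on genes of proteasome subunits, and the integrated stress response acts through ATF4. Passage through the cell cycle also depends on the proteasome, which removes cyclins in mitosis, and NF-kB is freed when the proteasome destroys its inhibitor. Hodgkin lymphoma cells are of B cell origin but have lost most B cell genes, and they carry active NF-kB and secrete many cytokines and chemokines.

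The arrays fell by group. Levels are log2 of background-corrected, quantile-normalised bead signals. Correlations of arrays were taken over all probes that passed the detection filter. They were 0.9913 to 0.9928 within the 71.25 nM group and 0.992 to 0.9926 within the resistant group, against 0.9796 to 0.9811 between the groups. Mean raw signal was 342.3 to 353.8 at 71.25 nM and 293.2 to 326.7 in resistant cells, and 17861 to 18179 and 18016 to 18785 probes were detected. The Hodgkin cell markers TNFRSF8, which encodes CD30, FSCN1, CCL17, TRAF1, IRF4 and FUT4 were detected on all arrays of both groups, whereas the chemokine gene CCL22 was detected on 2 of 3 arrays at 71.25 nM and on 0 of 3 in resistant cells. The B cell gene PAX5, the T cell genes CD3D, CD3E, CD3G and CD247, the myeloid genes MPO and CSF3R, and COL1A1, COL1A2 and KRT19 of stromal and epithelial cells did not pass the detection filter. The B cell genes CD79A, MS4A1 and CD79B, the myeloid genes CD14 and LYZ and the epithelial gene EPCAM passed it. CD79A, CD14 and LYZ were detected on all 3 arrays of both groups, and none of the 6 passed the limma test between them. MS4A1 was detected on 2 of 3 arrays at 71.25 nM and 1 of 3 in resistant cells, CD79B on 1 and 2, and EPCAM on 1 and 1.

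Between resistant cells and acute 71.25 nM, 3222 genes (21.5%) passed an adjusted p of 0.05, of which 1688 (11.3% of all genes) were higher in resistant cells and 1534 (10.3%) lower. A call below means this limma threshold, adjusted over all probes kept. At least a 2-fold difference was seen for 369 of the called genes (2.47% of all genes), 229 of them higher (1.53%) and 140 lower (0.936%). That count depended on the handling of background. It was 116 with no background correction, 194 with an offset of 50 and 117 on the authors' values. The median difference over all genes was -0.01, and the groups did not overlap for 5666 genes (37.9%). The split of calls depended on scaling: scaling arrays to their median moved the median of all genes to -0.128 and gave 784 higher and 2121 lower, and scaling to housekeeping genes gave 1311 and 1755.

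**Figure D1:**
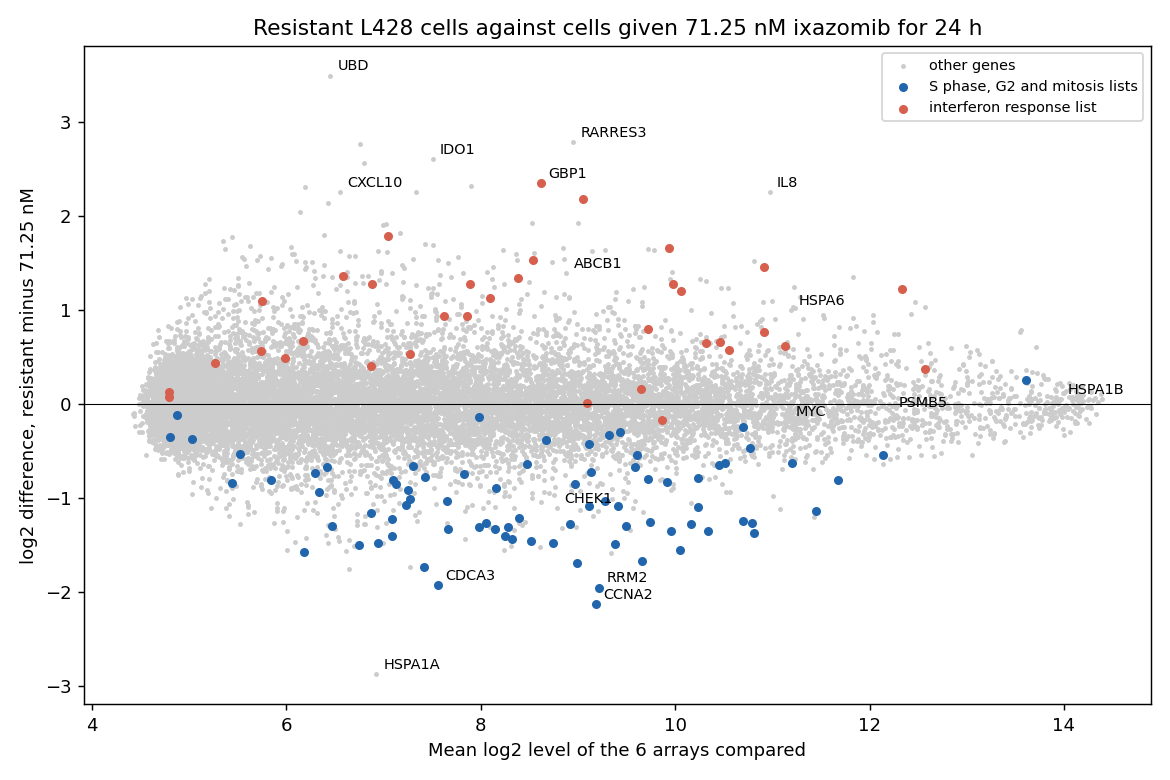
Each point is a gene, with its mean log2 level over the 6 arrays compared on the x axis and the log2 difference, resistant minus 71.25 nM, on the y axis; blue points are the S phase, G2 and mitosis lists and red points the interferon response list. Most blue points lie below 0 and most red points above it, with UBD plotted at 3.50, a fitted value against arrays that did not detect it, and HSPA1A lowest at -2.88.

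Genes of cell division made the most uniform difference. All but 1 of the 38 measured genes of the G2 and mitosis list were called lower in resistant cells, with a median of -1.28. The S phase and replication list had 35 of 41 lower and a median of -0.80. Neither list had a member called higher. Together the 2 lists hold 79 measured genes, of which 72 were lower, and no list member was left out by the detection filter. Median scaling gave 37 and 37 lower in the 2 lists and housekeeping scaling 37 and 36. Leaving out single arrays gave 36 to 37 and 32 to 34.

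CCNA2 encodes cyclin A2, which drives S phase and entry into mitosis. Its log2 level was 10.24, 10.35 and 10.17 at 71.25 nM against 8.31, 8.02 and 8.02 in resistant cells. All 3 resistant arrays lay far below all 3 acute arrays, a 4.40-fold difference (log2 -2.14 ± 0.12, SE, adjusted p = 1.16e-07). Control cells averaged 10.14 and cells at 25 nM 10.33, so that the resistant cells were also below these levels. CDCA3, which helps to trigger the destruction of the mitosis inhibitor WEE1, read 8.46, 8.43 and 8.68 against 6.56, 6.47 and 6.74. The groups again lay apart, with resistant cells 3.81-fold lower (log2 -1.93 ± 0.11, adjusted p = 1.16e-07).

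Other mitotic genes named by size showed the same order. KIF20A, a kinesin of cytokinesis, was lower by a log2 difference of -1.74 ± 0.15, and TPX2, which nucleates spindle microtubules, by -1.69 ± 0.12. HMMR, a spindle-associated hyaluronan receptor, differed by -1.67 ± 0.12, and TOP2A, the topoisomerase that untangles chromosomes, by -1.56 ± 0.12. Beyond the list, the kinetochore genes SPC25 (-1.76 ± 0.11) and CDCA1, now NUF2 (-1.55 ± 0.13), the abscission gene CEP55 (-1.58 ± 0.10), TROAP, which encodes a protein of the spindle (-1.73 ± 0.12), and the mitotic kinase gene PBK (-1.56 ± 0.11) were among the 15 largest falls. The adjusted p of these 9 genes was at most 3.74e-06, and no resistant array overlapped an acute one. The largest falls were named only among called genes without overlap, and list members only among called genes, so this adds no support. The exception of the list was MKI67, the Ki-67 gene, at -0.35 ± 0.15 (adjusted p = 0.116), which was detected on 2 of 3 acute arrays and 1 of 3 resistant ones.

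In the S phase list the leading member was RRM2, the small subunit of ribonucleotide reductase, which makes deoxynucleotides. It read 10.13, 10.24 and 10.22 at 71.25 nM against 8.41, 8.34 and 7.98 in resistant cells. This was a 3.89-fold lower level in resistant cells with no overlap (log2 -1.96 ± 0.13, adjusted p = 5.99e-07), where control cells averaged 9.48. POLD1, the catalytic subunit of DNA polymerase delta, differed by -1.58 ± 0.13. E2F2, a transcription factor of S phase genes, differed by -1.41 ± 0.14, and MCM4, of the replicative helicase, by -1.30 ± 0.09. The thymidylate enzymes TYMS and TK1 were lower, at -1.36 ± 0.10 and -1.31 ± 0.10.

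The DNA damage checkpoint list had 16 of 25 measured genes lower and none higher, with a median of -0.43. It had 17 lower under median scaling, 15 under housekeeping scaling and 11 to 13 without single arrays. CHEK1, the checkpoint kinase CHK1 named in the title of the study, read 9.35, 9.29 and 9.39 at 71.25 nM against 8.32, 8.30 and 8.06 in resistant cells. The 3 resistant values lay below the 3 acute values, 2.16-fold lower (log2 -1.11 ± 0.11, adjusted p = 9.04e-06), and control cells averaged 9.54. The phosphatase genes CDC25C and CDC25A, which activate cyclin-dependent kinases, were lower, at -1.56 ± 0.10 and -1.10 ± 0.12. The opposing kinase gene PKMYT1 was lower too, at -1.18 ± 0.13, as were the Fanconi anaemia genes FANCI (-1.11 ± 0.12) and FANCD2 (-1.10 ± 0.13).

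CDKN1A, which encodes the cell cycle inhibitor p21, went the other way. Its level was 9.69, 9.69 and 9.60 at 71.25 nM against 10.94, 11.09 and 10.87 in resistant cells, a 2.48-fold higher level (log2 1.31 ± 0.10, adjusted p = 9.71e-07). The order of group means was control at 7.59, 25 nM at 9.36, 71.25 nM at 9.65 and resistant cells at 10.97. MYC, also named in the title, was at 11.22, 11.32 and 11.23 against 11.17, 10.99 and 11.06. The difference of -0.19 ± 0.11 did not pass the test (adjusted p = 0.287).

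**Figure D2:**
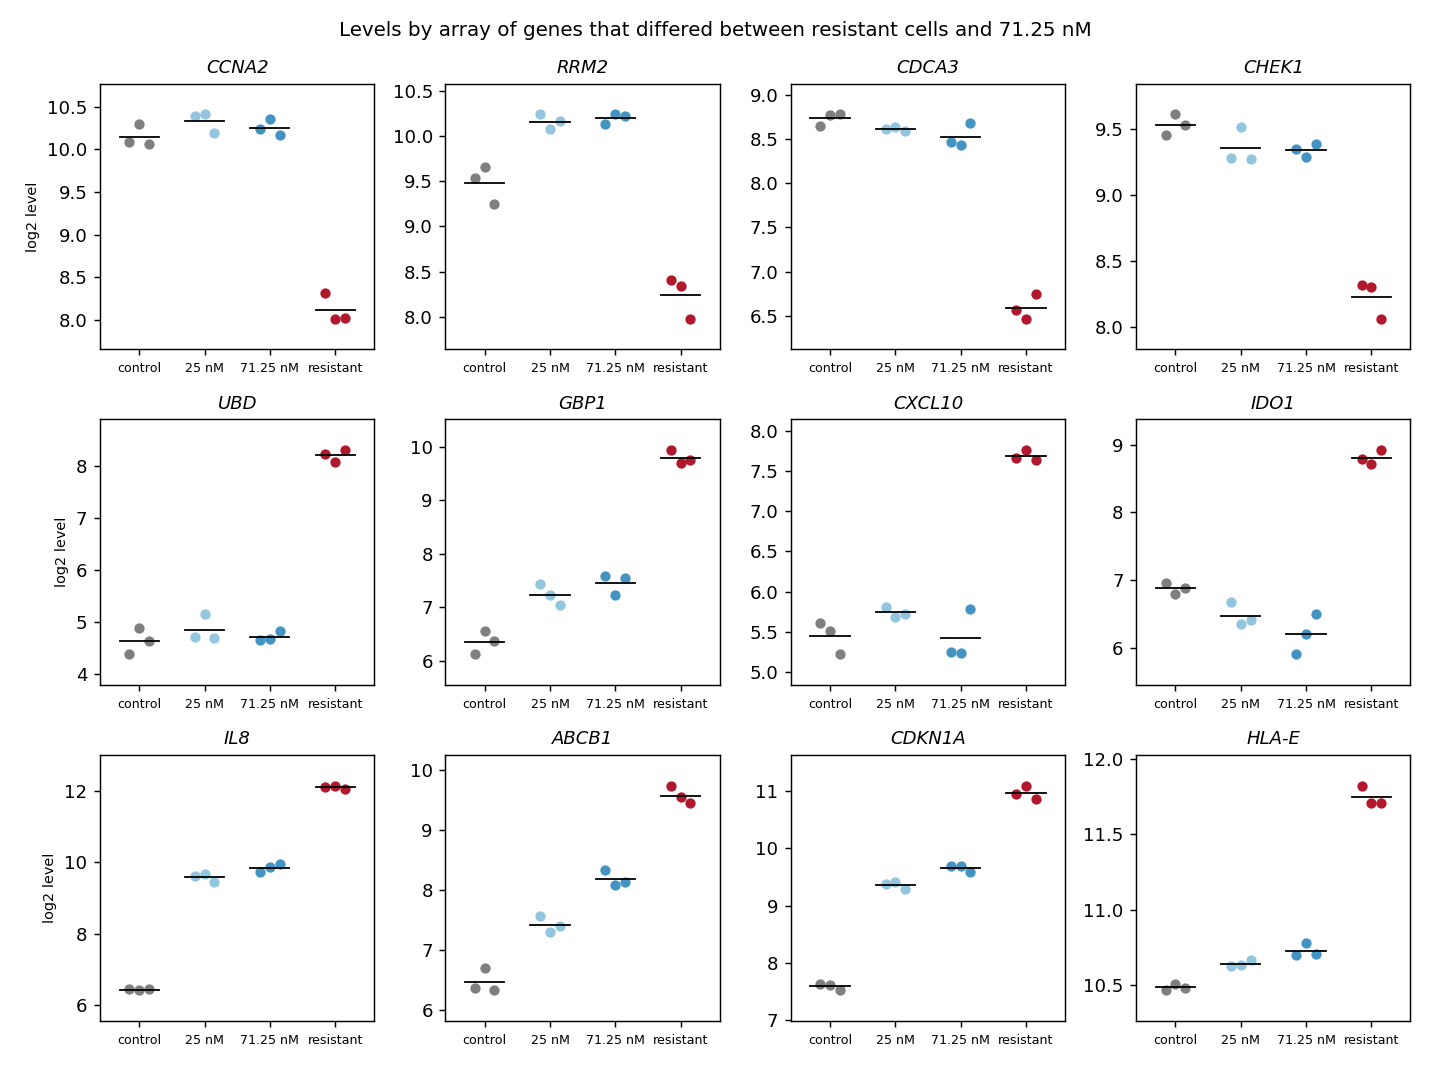
Each panel gives the log2 level of 1 gene on the 12 arrays, 3 per group, with a bar at the group mean; the y axes differ between panels and do not start at 0. CCNA2, RRM2, CDCA3 and CHEK1 are lowest on the resistant arrays, and the other 8 genes are highest there.

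Of 35 measured interferon response genes 29 were higher in resistant cells and none lower, with a median of 0.80. The count was 21 under median scaling, 27 under housekeeping scaling and 24 to 27 without single arrays. GBP1, a guanylate-binding GTPase induced by interferon gamma, read 7.57, 7.22 and 7.54 at 71.25 nM against 9.94, 9.69 and 9.75 in resistant cells. It was 5.10-fold higher with no overlap (log2 2.35 ± 0.14, adjusted p = 3.02e-07). Its relatives GBP4 and GBP2 were higher by 2.19 ± 0.10 and 1.67 ± 0.09, the viral RNA sensor gene OAS2 by 1.79 ± 0.13, and the regulator genes IRF7 and IRF1 by 1.54 ± 0.12 and 1.46 ± 0.13.

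The largest rise of all was in UBD, which encodes FAT10, a ubiquitin-like modifier that sends proteins to the proteasome and is induced by interferon gamma and TNF. It was detected on no array at 71.25 nM, where its values were 4.64, 4.66 and 4.81, and it was detected on all 3 resistant arrays at 8.23, 8.08 and 8.30 in resistant cells. Resistant cells were at least 10.1-fold higher, counted from the lowest signal detected on the acute arrays. UBD passed the detection filter through its 3 resistant arrays, with 1 control array and 1 array at 25 nM also detected, so a call was possible in the higher direction only and no p is given. IDO1, which breaks down tryptophan, read 5.90, 6.20 and 6.50 against 8.79, 8.71 and 8.92, a 6.09-fold higher level (log2 2.61 ± 0.14). A probe under its older symbol INDO differed by 2.57 ± 0.11.

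Other genes among the 15 largest rises belong to no list. RARRES3, now PLAAT4, a phospholipid acyltransferase, was higher by 2.79 ± 0.15 and TMEM140, a membrane protein gene, by 2.77 ± 0.18. ARHGDIB was higher by 2.32 ± 0.12 and MMP9, a secreted gelatinase detected on 2 of 3 acute arrays, by 2.32 ± 0.16. MLLT11 differed by 2.26 ± 0.09, the nuclear receptor gene PPARG by 2.14 ± 0.15, SLC15A3, a peptide and histidine transporter of lysosomes, by 2.04 ± 0.11, and PPY, the pancreatic polypeptide gene, by 1.93 ± 0.13. For these 8 genes the adjusted p was at most 8.80e-07. Every resistant array was above every acute array, but the largest rises were named only among called genes without overlap, so this adds no support. MLLT11 averaged 4.93 in control cells and 6.27 at 25 nM, against 6.20 at 71.25 nM and 8.46 in resistant cells.

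Secreted immune signals were higher in number as well. The chemokine list had 15 of 20 measured genes higher, the cytokine list 22 of 34 and the list of NF-kB subunits and targets 24 of 34, with 1 NF-kB list member lower. Their medians were 0.75, 0.60 and 0.59. These lists overlap, and 12, 10 and 5 of their genes did not pass the detection filter. Median scaling gave 14, 16 and 15 higher, and housekeeping scaling 15, 21 and 22, with 3 and 2 NF-kB list members lower.

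CXCL10, a ligand of the chemokine receptor CXCR3 of T cells, read 5.26, 5.24 and 5.78 at 71.25 nM against 7.65, 7.76 and 7.64 in resistant cells. It was 4.78-fold higher with no overlap (log2 2.26 ± 0.15, adjusted p = 4.26e-07). IL8, now CXCL8, which attracts neutrophils, read 9.73, 9.86 and 9.94 against 12.12, 12.14 and 12.05, also 4.78-fold higher (log2 2.26 ± 0.10, adjusted p = 1.56e-08). Its control mean was 6.43, so its group means ran from control through 9.57 at 25 nM and 9.84 at 71.25 nM to 12.10 in resistant cells. CCL2 (fitted 1.55 ± 0.15, detected on 1 of 3 acute arrays, with a mean below the lowest detected level), CCL1 (1.53 ± 0.10), CCL20 (1.45 ± 0.14) and the receptor gene CXCR3 (1.03 ± 0.18) were also higher. CCL1, CCL2 and CXCR3 had group means of 10.05, 4.80 and 5.35 at 71.25 nM below control means of 10.86, 6.16 and 6.96, and resistant cells averaged 11.58, 6.34 and 6.38.

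Among cytokines and receptors, TNFSF10, the death ligand TRAIL, was higher by 1.64 ± 0.11. IL12A, the p35 subunit of interleukin 12, differed by 1.53 ± 0.13, and the lymphoid growth factor receptor gene IL7R by 1.51 ± 0.17. IL9, a growth factor of T cells and mast cells, differed by 1.34 ± 0.12, the inflammatory cytokine gene IL32 by 1.23 ± 0.12, and IL2RB, a receptor chain of interleukins 2 and 15, by 1.22 ± 0.15. PLAU, a serine protease gene and NF-kB target, was higher by 1.33 ± 0.10. The adhesion genes ICAM1 and VCAM1, ligands of leukocyte integrins, were higher by 1.63 ± 0.20 and 1.55 ± 0.14. VCAM1 averaged 6.27 in control cells, 5.06 at 71.25 nM and 6.61 in resistant cells, whereas ICAM1 averaged 7.31, 8.33 and 9.96. The adhesion and cytoskeleton list had 15 of 35 higher and none lower (8 and 1 under median scaling, 12 and 1 under housekeeping scaling), with ANXA1 (1.08 ± 0.09) and the galectin gene LGALS1 (1.03 ± 0.10) next in size.

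Antigen presentation genes were higher in both classes. MHC class I had 10 of 13 genes higher, with a median of 0.54, MHC class II 9 of 16, with 0.50, and the immunoproteasome and peptide loading list 7 of 10, with 0.53, and none of the 3 lists had a member called lower. Under median scaling the counts were 7, 2 and 4, and under housekeeping scaling 10, 9 and 6. HLA-E, a ligand of natural killer cell receptors, read 10.70, 10.78 and 10.70 at 71.25 nM against 11.82, 11.71 and 11.71 in resistant cells, 2.03-fold higher with no overlap (log2 1.02 ± 0.09, adjusted p = 3.30e-06). Probes of HLA genes can read more than 1 near-identical gene, so the values of HLA-G (1.01 ± 0.09), HLA-F (0.97 ± 0.12) and HLA-B (0.81 ± 0.11) are uncertain as to the gene. B2M, the light chain they share, was higher by 0.77 ± 0.13. CD74, the class II chaperone, was higher by 0.96 ± 0.16 and HLA-DMB, which loads peptides, by 0.73 ± 0.10.

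The lists differed in where control cells stood. Relative to the mean of the 71.25 nM arrays, the median of the class II list was 0.52 to 0.72 on control arrays and 0.38 to 0.50 on resistant arrays. For class I it was 0.05 to 0.17 on control arrays and 0.59 to 0.82 on resistant arrays. For the interferon list it was -0.40 to -0.35 and 0.78 to 0.83, and for the G2 and mitosis list -0.12 to 0.04 and -1.30 to -1.26.

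**Figure D3:**
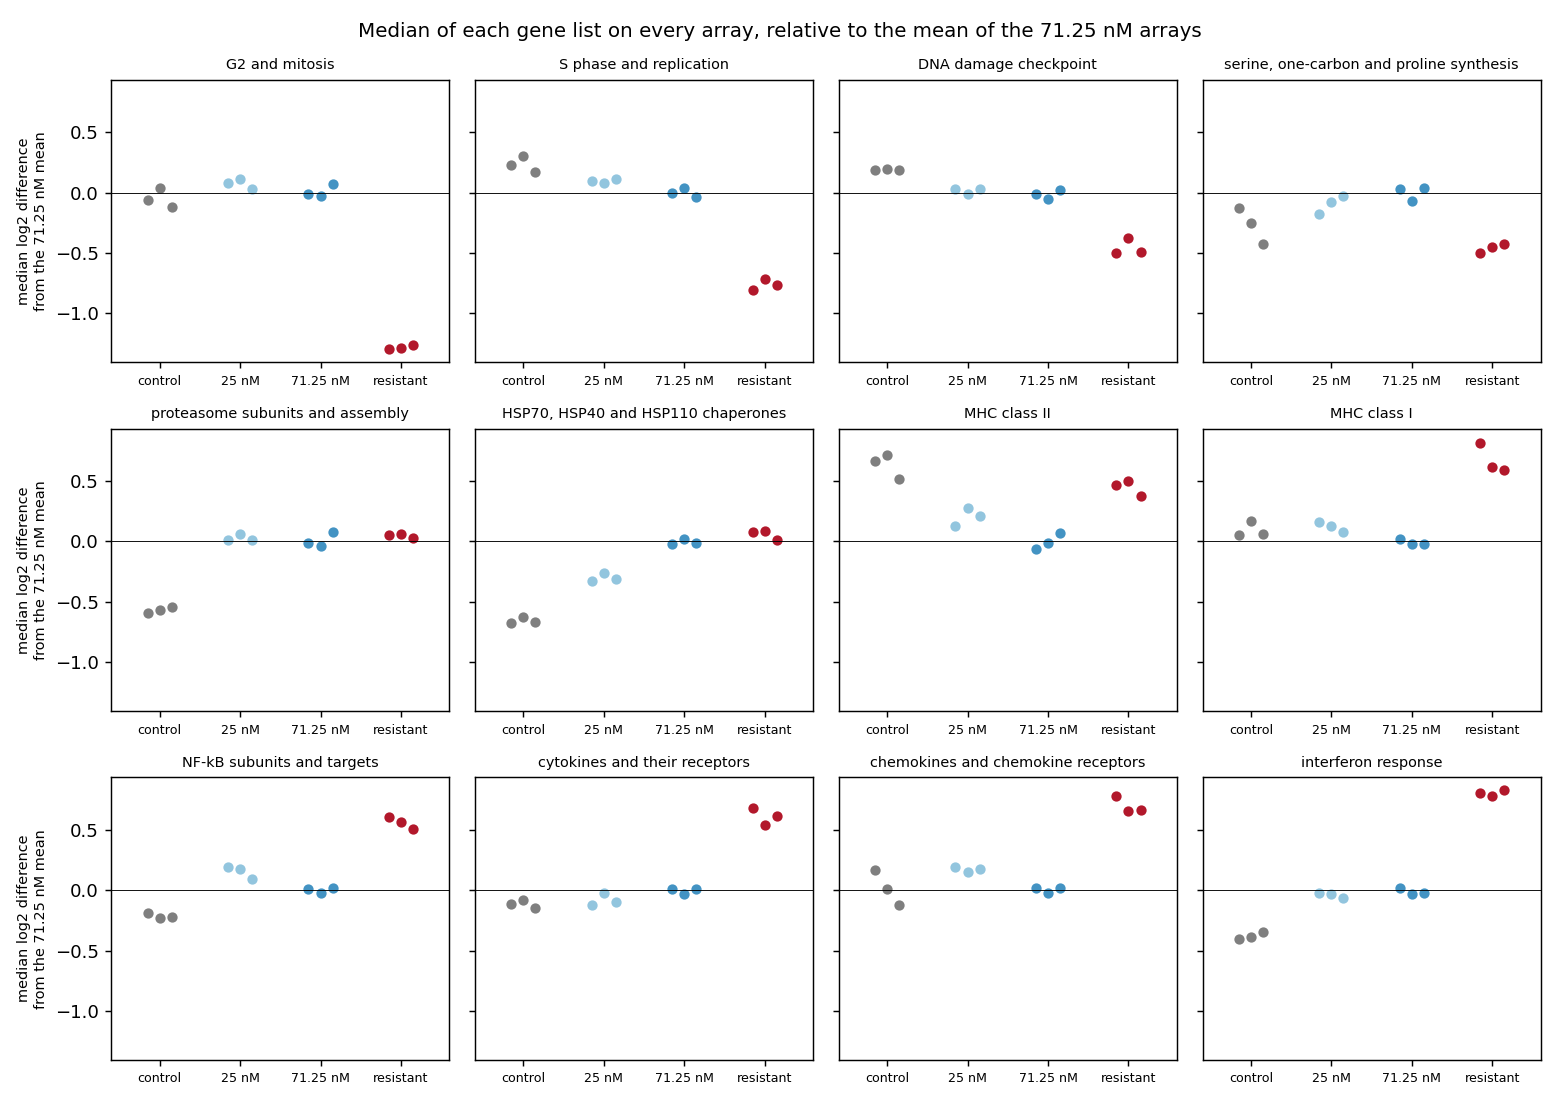
Each panel gives, for 1 gene list, the median over its measured genes of the log2 level minus the mean of the 71.25 nM arrays, on each of the 12 arrays, 3 per group. The resistant arrays lie between -1.30 and -1.26 for G2 and mitosis and between 0.78 and 0.83 for the interferon response, while for proteasome subunits they lie between 0.03 and 0.06, among the 71.25 nM arrays.

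The proteasome genes themselves separated the groups little. Of 43 measured subunit and assembly genes, 3 were called higher and 2 lower, a share of 11.6% against 21.5% of all genes. The median was 0.06, which turned to -0.14 under median scaling and -0.03 under housekeeping scaling, both with 0 higher and 3 lower. At most 1 member was called higher when any single array was left out. PSMB5, which carries the site that ixazomib binds, read 12.23, 12.22 and 12.38 at 71.25 nM against 12.22, 12.20 and 12.13 in resistant cells. These values overlapped (log2 -0.09 ± 0.10, adjusted p = 0.557), and both groups were above the control mean of 11.34. The list median on control arrays was -0.59 to -0.54 relative to 71.25 nM.

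The immunoproteasome subunits behaved otherwise. PSMB9 encodes the subunit that takes the place of PSMB6 in cells exposed to interferon gamma, and it read 7.56, 7.41 and 7.47 at 71.25 nM against 8.55, 8.40 and 8.71 in resistant cells. It was 2.11-fold higher with no overlap (log2 1.07 ± 0.12, adjusted p = 2.53e-05), and the control mean was 8.14. PSMB8, the counterpart of PSMB5, was higher by 0.99 ± 0.10 and PSMB10 by 0.75 ± 0.13. TAP1, the peptide transporter of the endoplasmic reticulum, was higher by 1.09 ± 0.09.

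Chaperone genes split. HSPA1A, a stress-inducible HSP70 gene, was the largest fall of all genes, at 8.33, 8.48 and 8.28 at 71.25 nM against 5.71, 5.51 and 5.23 in resistant cells. It was 7.36-fold lower with no overlap (log2 -2.88 ± 0.14, adjusted p = 3.50e-08), and its control mean was 4.63. HSPA1B, chosen after its values were seen because it encodes a nearly identical protein, read 13.93, 13.96 and 13.93 against 13.99, 14.03 and 13.94, a difference of 0.05 ± 0.09 (adjusted p = 0.774) with a control mean of 9.95. The transcripts are alike enough that a probe can read both, so which gene the HSPA1A probe measured is uncertain.

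HSPA6, the HSP70 gene that is nearly silent without stress, was at 10.56, 10.93 and 10.60 at 71.25 nM against 11.72, 11.64 and 11.71 in resistant cells. It was 1.99-fold higher in resistant cells (log2 1.00 ± 0.12, adjusted p = 4.06e-05), with group means of 5.05 in control cells and 8.31 at 25 nM. HSPA7, a near-identical copy whose signal cannot be told from that of HSPA6, differed by 1.14 ± 0.14. The HSP40 genes DNAJA4 and DNAJB2, which pass clients to HSP70, were higher by 0.92 ± 0.09 and 0.66 ± 0.09. HSPB1, the small heat shock protein HSP27, was higher by 0.76 ± 0.10, and HSF1, the heat shock factor, by 0.59 ± 0.11. Across the HSP70, HSP40 and HSP110 list 7 of 30 were higher and 2 lower (5 and 5 under median scaling, 6 and 4 under housekeeping scaling), with a median of 0.04 that became -0.10 under median scaling. The list of HSP90, small heat shock proteins and chaperonins had 5 of 26 higher and none lower (3 and 1, then 4 and 0 under these scalings), with a median of 0.07, which became -0.12 under median scaling and -0.01 under housekeeping scaling. This list had 19.2% called, near the 21.5% of all genes, and the HSP70, HSP40 and HSP110 list had 30.0%.

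**Figure D4:**
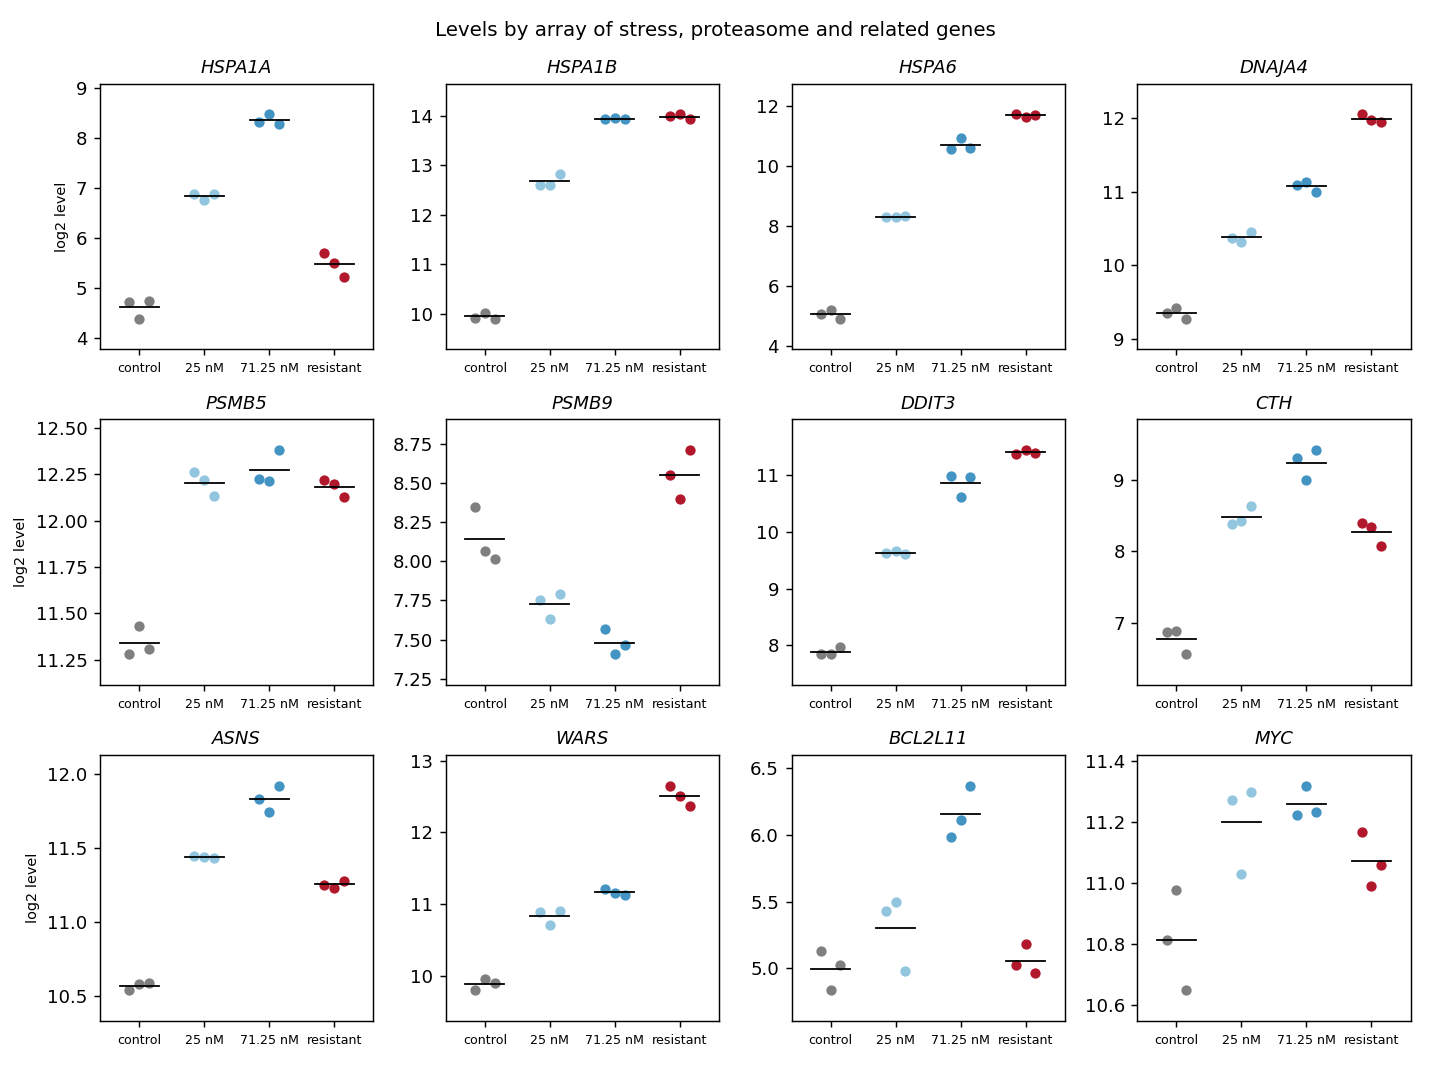
Each panel gives the log2 level of 1 gene on the 12 arrays, 3 per group, with a bar at the group mean; the y axes differ between panels and do not start at 0. HSPA1A drops from 8.36 at 71.25 nM to 5.48 in resistant cells, HSPA1B is at 13.94 and 13.99, HSPA6 is at 10.70 and 11.69, and PSMB5 overlaps between the 2 groups.

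Promoters of genes that lead these differences are shown so that the letters of known elements can be seen beside the values. Each is the stretch of 250 bases before the gene start in RefSeq, build GRCh38.p14, on the strand of the gene, and capitals mark the match. HSPA1A (chr6:31815293-31815542, plus strand) and HSPA6 (chr1:161524290-161524539, plus strand) are shown for the heat shock element, searched on both strands as GAANNTTC and TTCNNGAA. GBP1 (chr1:89065209-89065458, minus strand) is shown for the interferon-stimulated response element, GAAANNGAAA or TTTCNNTTTC. HMMR (chr5:163460382-163460631, plus strand) and TOP2A (chr17:40417897-40418146, minus strand) are shown for the cell cycle homology region, TTTGAA or TTCAAA. The last 3 genes and their 2 elements were chosen after the values were seen.
HSPA1A: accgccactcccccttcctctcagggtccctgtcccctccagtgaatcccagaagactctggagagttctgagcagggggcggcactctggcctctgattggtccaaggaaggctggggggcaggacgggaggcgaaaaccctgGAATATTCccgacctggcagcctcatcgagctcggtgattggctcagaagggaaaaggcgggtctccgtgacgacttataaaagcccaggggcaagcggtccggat
HSPA6: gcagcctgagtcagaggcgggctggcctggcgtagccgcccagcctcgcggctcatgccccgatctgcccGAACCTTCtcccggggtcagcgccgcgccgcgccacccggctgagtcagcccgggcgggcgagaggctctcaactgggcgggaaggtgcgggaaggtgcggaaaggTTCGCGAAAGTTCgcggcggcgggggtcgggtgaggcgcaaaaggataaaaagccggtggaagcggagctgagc
GBP1: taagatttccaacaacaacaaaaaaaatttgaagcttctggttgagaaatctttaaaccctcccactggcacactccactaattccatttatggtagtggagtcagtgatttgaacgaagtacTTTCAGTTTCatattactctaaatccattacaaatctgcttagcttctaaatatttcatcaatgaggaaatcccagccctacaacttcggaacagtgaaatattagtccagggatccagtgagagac
HMMR: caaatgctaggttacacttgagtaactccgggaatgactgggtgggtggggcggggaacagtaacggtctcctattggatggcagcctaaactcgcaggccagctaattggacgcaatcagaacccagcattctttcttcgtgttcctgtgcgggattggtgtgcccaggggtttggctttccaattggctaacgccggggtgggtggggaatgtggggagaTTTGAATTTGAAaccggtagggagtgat
TOP2A: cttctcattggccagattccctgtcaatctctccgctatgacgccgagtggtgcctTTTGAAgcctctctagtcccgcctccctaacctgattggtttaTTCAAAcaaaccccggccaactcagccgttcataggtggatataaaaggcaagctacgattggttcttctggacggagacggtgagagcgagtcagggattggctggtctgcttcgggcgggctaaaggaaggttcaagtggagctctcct

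The HSPA1A window held 1 heat shock match, 106 bases before the start, and the HSPA6 window held 3, of which 2 overlap. GAANNTTC was found in 5.85% of 27305 promoter windows, in 8 of the 27 windows matched to the HSP70, HSP40 and HSP110 list and in 3 of 9 of the MHC class I list. TTCNNGAA was found in 6.72% of all windows and in 3 of the 27. The interferon element was found in 3.07% of all windows, in 16 of 25 windows of the interferon list and in 5 of 10 of the immunoproteasome list. The cell cycle element was found in 13.6% of all windows, in 16 of 30 windows of the G2 and mitosis list and in 1 of 36 of the S phase list. A match describes letters only, and a window without one says nothing about the factor.

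Genes of amino acid supply differed within the stress response. The serine, one-carbon and proline synthesis list had 11 of 15 genes lower in resistant cells and none higher, with a median of -0.48 and a count of 11 under either scaling. ASNS, asparagine synthetase and a target of ATF4, read 11.83, 11.74 and 11.92 at 71.25 nM against 11.25, 11.23 and 11.28 in resistant cells, 1.49-fold lower with no overlap (log2 -0.57 ± 0.09, adjusted p = 0.00043). Its control mean was 10.57, below both. The folate enzymes MTHFD1L (-0.79 ± 0.11) and MTHFD1 (-0.64 ± 0.11) and the proline enzyme ALDH18A1 (-0.72 ± 0.10) were lower, and MTHFD1 and ALDH18A1 also stood below their control means of 8.67 and 9.06, at 7.20 and 7.73.

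The ATF4 list had 6 of 24 higher and 3 lower (3 and 4 under median scaling, 5 and 4 under housekeeping scaling), with a median of 0.12 that became -0.03 under median scaling. CTH, which makes cysteine from cystathionine, was lower, at -0.97 ± 0.14, at 8.40, 8.33 and 8.07 against 9.31, 8.99 and 9.41. GDF15, a secreted stress cytokine, was higher by 1.67 ± 0.19, and DDIT4, an inhibitor of mTORC1, by 0.90 ± 0.13. Of the cytosolic aminoacyl-tRNA synthetases 6 of 22 were lower (7 under either scaling), among them IARS (-0.58 ± 0.12), CARS (-0.46 ± 0.10) and EPRS (-0.37 ± 0.09), and 3 were lower without array 8, 9 or 10. WARS, the tryptophan enzyme, was the 1 called higher, at 11.21, 11.16 and 11.12 against 12.65, 12.51 and 12.37, a 2.54-fold higher level with no overlap (log2 1.35 ± 0.10, adjusted p = 1.30e-06). WARS is known to be induced by interferon gamma.

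The unfolded protein response and endoplasmic reticulum list had 2 of 24 higher and 2 lower (1 and 3 under median scaling, 2 and 3 under housekeeping scaling). That share of 16.7% was below the 21.5% of all genes. ERN1, the sensor IRE1, was higher by 0.71 ± 0.10 and TXNDC5, a disulfide isomerase, was lower, at -0.57 ± 0.11. Of ER-associated degradation genes 0 of 18 were higher and 1 was lower (5.56% called), as under either scaling. The NRF2 and oxidative stress list had 10 of 28 higher and 1 lower (5 and 2 under median scaling, 8 and 2 under housekeeping scaling), with a median of 0.14 that fell to 0.00 under median scaling. It was led by the small MAF gene MAFF (0.97 ± 0.15), OSGIN1 (0.94 ± 0.13), the heme oxygenase gene HMOX1 (0.91 ± 0.11) and the quinone reductase gene NQO1 (0.81 ± 0.15). In the ubiquitin and autophagy list 2 of 29 were higher and 2 lower (1 and 4 under median scaling, 1 and 2 under housekeeping scaling), among them the autophagy receptor gene OPTN (0.68 ± 0.11) and UCHL5, a deubiquitinase of the proteasome (-0.68 ± 0.10). This list had 13.8% called, below the 21.5% of all genes. Of lysosome genes 11 of 29 were higher and 1 lower (8 and 1 under housekeeping scaling, 4 and 1 under median scaling, where the median moved from 0.19 to -0.01), with the protease gene CTSH (1.04 ± 0.10) and the saposin gene PSAP (0.88 ± 0.12) as examples.

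**Figure D5:**
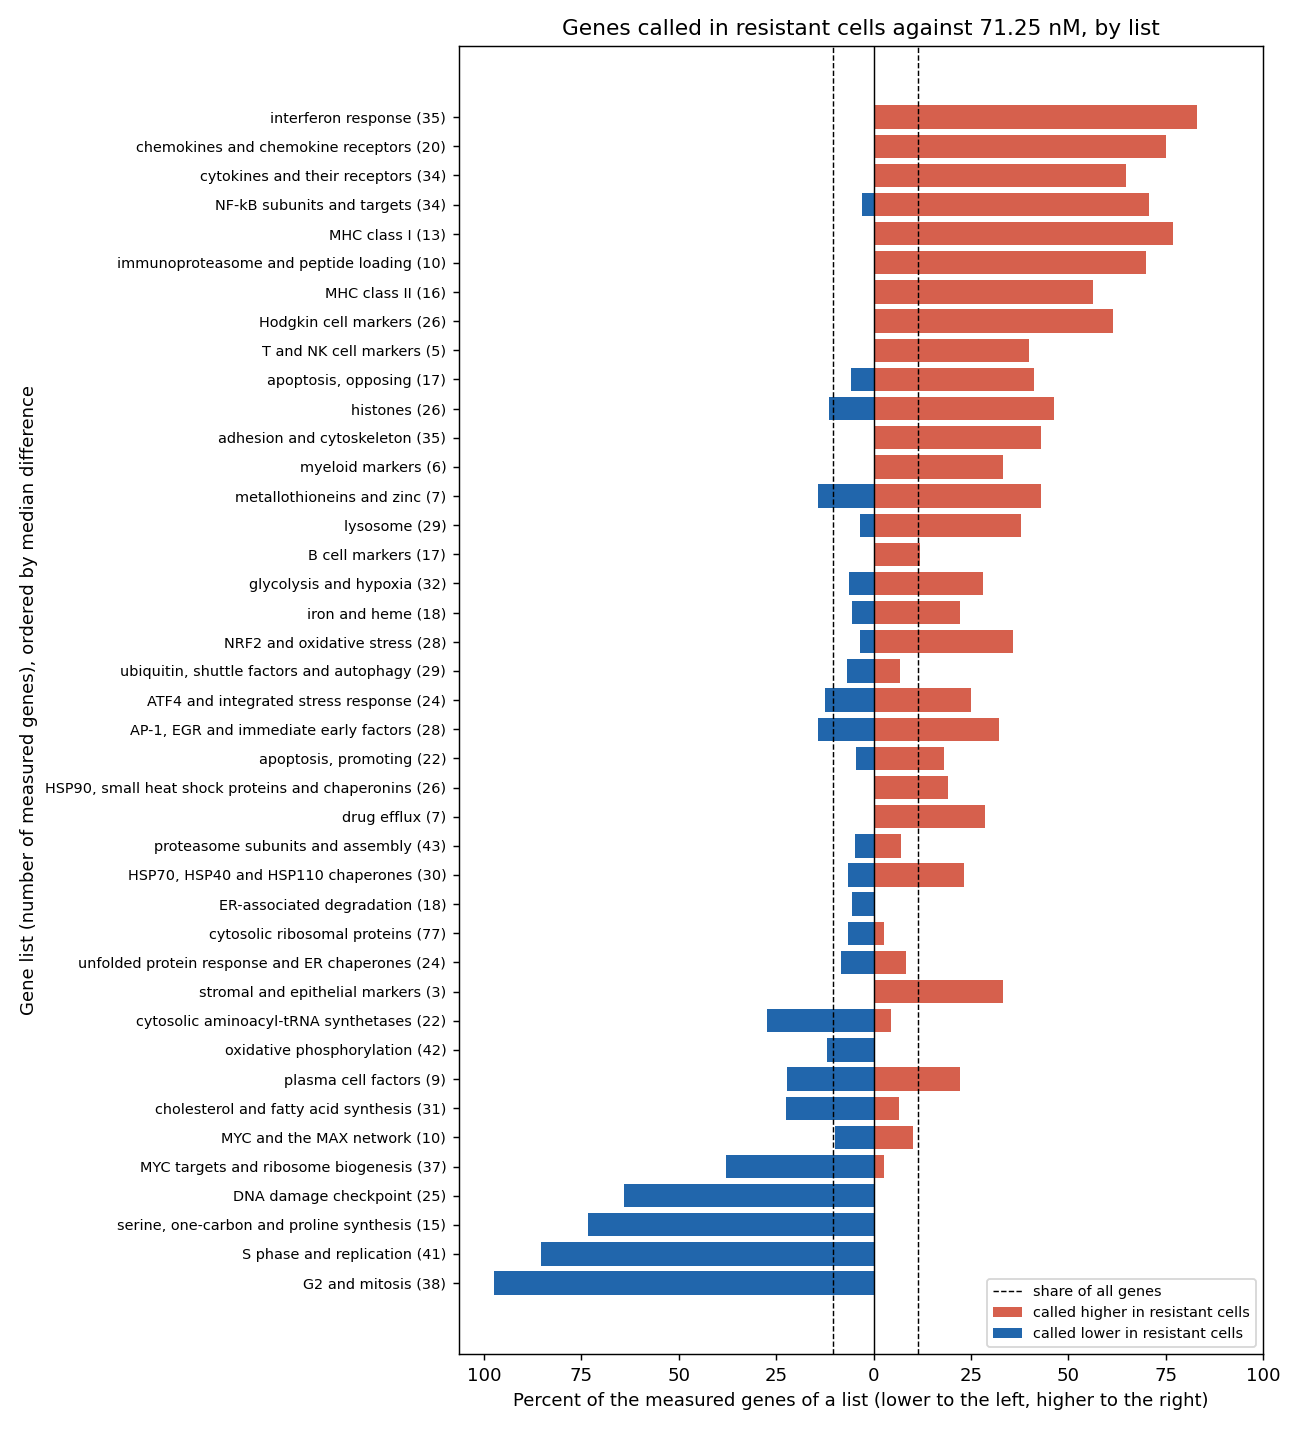
Bars give, for each gene list shown, the percent of its measured genes called higher (red, to the right) or lower (blue, to the left) in resistant cells against 71.25 nM; the lists are ordered by median difference and the dashed lines mark the shares of all genes, 11.3% and 10.3%. Immune lists fill the top and cell division lists the bottom, and the proteasome list has 6.98% and 4.65%.

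Of 17 genes opposing apoptosis 7 were higher and 1 lower, but 4 were higher without array 9 or array 10, 2 under median scaling and 4 under housekeeping scaling. PIM2, a survival kinase gene, was higher by 1.11 ± 0.10 and BIRC3, an inhibitor of apoptosis induced by NF-kB, by 1.04 ± 0.10. BIRC5, or survivin, which also acts in mitosis, was lower, at -1.35 ± 0.11. Of genes promoting apoptosis 4 of 22 were higher and 1 lower (1 and 1 under either scaling), a share of 22.7% that is near the 21.5% of all genes, with a median of 0.09 that became -0.05 under median scaling. The lower one was BCL2L11, which encodes the BH3 protein BIM. It read 5.99, 6.11 and 6.37 at 71.25 nM against 5.02, 5.18 and 4.97 in resistant cells, 2.14-fold lower (log2 -1.10 ± 0.15, adjusted p = 0.000138). The resistant arrays lay beside the control mean of 4.99, and the acute arrays above it.

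ABCB1, the efflux pump P-glycoprotein, read 8.33, 8.08 and 8.13 at 71.25 nM against 9.74, 9.55 and 9.45 in resistant cells. It was 2.63-fold higher with no overlap (log2 1.39 ± 0.13, adjusted p = 6.53e-06), and the group means were 6.47 in control cells and 7.42 at 25 nM. MVP, the major vault protein gene, was higher by 0.80 ± 0.12. The other 5 measured genes of the efflux list were not called, the count was also 2 under either scaling, 5 more did not pass the detection filter, and the list median of 0.06 became -0.11 under median scaling. The share of the list called was 28.6%, against 21.5% of all genes.

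Of the 10 measured genes of MYC and the MAX network, the MYC antagonist gene MXD1 was called higher (0.57 ± 0.12) and MXD3 of the same family lower (-0.56 ± 0.14, not called without array 10), against 1 and 2 under median scaling and 1 and 0 under housekeeping scaling. MYC targets and ribosome biogenesis genes had 14 of 37 lower and 1 higher, with a median of -0.25. The count of lower genes was 19 under median scaling and 17 under housekeeping scaling, and 8 without array 7, 9 without array 11 and 8 without array 12. ODC1, the rate-limiting enzyme of polyamine synthesis, led the list at 11.61, 11.69 and 11.62 against 10.56, 10.48 and 10.52, with no overlap (log2 -1.12 ± 0.11, adjusted p = 8.61e-06). Of cytosolic ribosomal protein genes 5 of 77 were lower (6.49%, against 10.3% of all genes) and 2 higher, and 1 to 3 were lower without any single array. The balance depended on scaling, with 2 lower and 7 higher under cyclic loess, where the median of -0.05 became 0.02, 11 and 1 under median scaling and 8 and 1 under housekeeping scaling. Of oxidative phosphorylation genes 5 of 42 were lower (11.9%, near the 10.3% of all genes) and none higher (3 lower without array 11, 10 under either scaling), with NDUFS8 of complex I at -0.42 ± 0.10. The cholesterol and fatty acid synthesis list had 7 of 31 genes lower and 2 higher (9 lower and 1 higher under either scaling), 29.0% called against 21.5% of all genes. Among the lower ones were the fatty acid genes ACACA (-0.66 ± 0.11) and FASN (-0.62 ± 0.11). Without array 7, 8, 10 or 11 the lower genes numbered 4. Glycolysis and hypoxia genes had 9 of 32 higher and 2 lower (5 and 4 under median scaling, 8 and 4 under housekeeping scaling), with the secreted peptide gene ADM at 1.48 ± 0.14 and the phosphofructokinase gene PFKL at -1.07 ± 0.16, and the median of 0.15 became -0.07 under median scaling.

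Immediate early genes were mixed, with 9 of 28 higher and 4 lower (4 and 4 under median scaling, 6 and 4 under housekeeping scaling). The ERK phosphatase gene DUSP5 was higher by 1.54 ± 0.11 and EGR2 by 1.01 ± 0.12, whereas the AP-1 genes FOS and JUN were lower, at -0.91 ± 0.16 and -0.59 ± 0.11. Histone genes had 12 of 26 higher and 3 lower (9 and 4, then 11 and 3 under these scalings), and 1 was lower without array 7, 10 or 11. HIST1H2BD (1.40 ± 0.10) and HIST1H4H (1.40 ± 0.17) led them, and both are members of families of near-identical genes, so the gene is uncertain. Of the 7 measured metallothionein and zinc genes 3 were higher, MT1A (0.80 ± 0.13), MT1X (0.72 ± 0.12) and MT2A (0.71 ± 0.14), which are near-identical copies, and the zinc exporter gene SLC30A1 was lower, at -0.73 ± 0.15, with the same counts under either scaling. Of the iron and heme list 4 of 18 were higher and 1 lower (1 and 2 under median scaling, 2 and 2 under housekeeping scaling), and 2 were higher without array 7 or array 12, with the median of 0.14 at -0.04 under median scaling. Its share called was 27.8%, against 21.5% of all genes. IREB2, an iron-sensing regulator of mRNAs, was the lower one at -0.40 ± 0.10.

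Hodgkin cell markers were called higher in 16 of 26 cases and lower in none, with a median of 0.50 (12 higher and 2 lower under median scaling, 13 and 2 under housekeeping scaling). Not all rose. CCL22 (-0.38 ± 0.13, limma adjusted p = 0.0517) and IRF4 (-0.29 ± 0.11, adjusted p = 0.0764) were lower without being called. FUT4 (0.11 ± 0.12) and FSCN1 (0.27 ± 0.12) were not called, whereas TNFRSF8 (0.46 ± 0.11), CCL17 (0.62 ± 0.10) and TRAF1 (0.45 ± 0.12) were called higher. CD274, the checkpoint ligand PD-L1, was detected on 1 of 3 acute and all 3 resistant arrays. It read 4.97, 4.69 and 4.76 at 71.25 nM against 5.70, 6.20 and 6.18 in resistant cells with no overlap (fitted log2 1.22 ± 0.14, adjusted p = 3.00e-05), and its acute mean of 4.81 was below the lowest level detected on each of those arrays, so the size is uncertain. CSF1R, the macrophage growth factor receptor gene, was higher by 1.20 ± 0.16, IL13, an autocrine growth factor of these cells, by 1.08 ± 0.11, and the costimulatory genes CD86 and CD40 by 0.90 ± 0.09 and 0.89 ± 0.13. Of B cell markers 2 of 17 measured were higher (11.8%, near the 11.3% of all genes, and 2 under either scaling), BCL6, the germinal centre repressor (1.44 ± 0.17), and FCRLA, which was not detected at 71.25 nM and was at least 1.38-fold higher. The count includes FCRLA, although its call was possible in the higher direction only. Plasma cell factors had 2 of 9 higher and 2 lower (2 and 3 under either scaling), with PRDM1, or BLIMP1, at 0.83 ± 0.11 and SDC1, or CD138, at -0.70 ± 0.15.

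Markers of other cell types were mostly below detection. Of 20 T and NK cell markers 5 passed the filter and 2 were higher, the granzyme gene GZMB (0.61 ± 0.11) and NKG7, not detected at 71.25 nM and at least 1.49-fold higher. A call of NKG7 was likewise possible in the higher direction only. The summed normalised signal of these 5 was 191.3 to 224.1 at 71.25 nM and 213.3 to 249.1 in resistant cells. Of 18 myeloid markers 6 passed and 2 were higher, CD68 (0.82 ± 0.09) and ITGAX (0.82 ± 0.18, detected on 1 of 3 acute arrays), with summed signals of 2596 to 2720 and 4381 to 4742. CD14 and LYZ, at mean log2 levels of 5.10 and 5.94 at 71.25 nM, were not called and add little to these sums. Of 20 stromal and epithelial markers 3 passed, ACTA2, VIM and EPCAM, and only ACTA2 was called, as higher (0.71 ± 0.09). Their sums were 15430 to 16660 and 14130 to 14980. EPCAM, at a mean log2 level of 4.79 at 71.25 nM, adds little to these sums. The part of these genes in the immune differences was not tested. In cells taken as a whole culture, fewer cells in a phase of the cycle and less RNA per cell cannot be told apart. Arrays are numbered in the order of the groups, so array order and group cannot be told apart either.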

How the data were processed

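RNA of L428 cells was measured on Illumina HT-12 arrays, 3 per group. The authors deposited a table of non-normalized probe intensities with a detection p-value for each probe and array. A second deposited table holds the authors' processed intensity values. Per the series design text, these were corrected with housekeeping genes and quantile normalized with software not given in the sources used here. Array columns name the group only. Each column of processed values matched 1 array of its own group.

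The deposited intensities were background-corrected with limma 3.58.1 in R 4.3.3 (normexp with negative controls inferred from the detection p-values, offset 16), quantile normalized and taken to log2. Of 47227 probes 20414 had a detection p under 0.05 on at least 3 of 12 arrays. The brightest kept probe stood for each of 14953 genes; 16 genes had probes called in opposite directions, and 54 symbols had turned into dates. A model with 1 mean per group was fitted with limma to all 12 arrays (moderated two-sided test, Benjamini-Hochberg over kept probes, adjusted p under 0.05). With 3 against 3, a permutation test of 1 gene cannot go below p = 0.1. The fit was tested on simulated data. The number of arrays limits the precision: the median SE was 0.13 on the log2 scale.

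Named genes are MYC, CHEK1, PSMB5, ABCB1, the 15 largest rises and falls with official symbols and no overlap, and up to 6 called members of each list with the largest differences; others are stated as chosen after their values were seen, and markers and list exceptions are named as such. The members and lists were chosen with earlier results of these data known. A bound of at least N-fold sets the dim group, array by array, at the faintest detected signal or at its own value where that is larger. Same-numbered samples of the compared groups had correlated deviations of 0.063, -0.06 and -0.18, so the numbers do not pair the samples. Alternatives were tried for background correction, offset, normalization, filter, samples fitted, variance prior, probe rule, test, input values, replicate block, and each array left out. Promoters came from RefSeq (GRCh38.p14). Some genes and 1 gene list are not reported here.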

Additional observations from a re-analysis of the deposited data

How the results depend on the processing

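Of 219 named genes, 215 were called and 166 of these remained called under all 20 alternatives, with none reversed. Nearly all were named because they were called with large differences, so these counts do not stand for all genes. Of all 3222 calls, 2273 were kept in the same direction under median scaling and 2617 under housekeeping scaling. Without single arrays 2373 to 2491 were kept. The total of 3222 calls was 2462 to 2710 when single arrays were left out (1343 to 1472 higher, 1119 to 1238 lower). Median scaling gave 784 higher calls against 1688, with 2121 lower (27% higher against 52.4%), and housekeeping scaling 42.8% higher; median scaling moves the zero point, with all genes at a median of -0.128. The authors' values gave 3918 calls, and 3206 without replicate 1 of 71.25 nM, the sample with both doses in its labels. With a replicate block on the authors' values the count was 3786; with no correlation over 0.1 in a same-numbered pair, the numbers were not taken as pairing. The other alternatives gave 2757 to 3921 calls. Sizes of single genes varied as well, so those printed hold for the main processing. Over the 20 alternatives the log2 difference ran from 1.16 to 2.44 for CXCL10 and from -1.18 to -0.41 for BCL2L11. For HSPA1A it ran from -3.01 to -1.69. The median of 28 of 42 lists took the opposite sign in no alternative. Among these lists the median reached 0.00 for NRF2 and oxidative stress under median scaling. It also did so for the unfolded protein response and endoplasmic reticulum list under cyclic loess.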

Other observations

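Genes outside the lists and the naming rule, chosen after their values were seen, add to the cytokine genes. IFNG, which encodes interferon gamma, was detected on all 3 arrays of both groups and on no control array. It read 5.40, 4.98 and 5.45 at 71.25 nM against 7.07, 6.72 and 6.83 in resistant cells (log2 1.59 ± 0.13, limma adjusted p = 2.54e-06), with no overlap between the groups. IL12RB1, a receptor chain of interleukins 12 and 23, read 5.47, 5.69 and 5.29 against 7.31, 7.21 and 7.35 (1.80 ± 0.13). The other kept probe of IL12RB1 differed by only 0.54, so the size is uncertain. HCST, which encodes the signalling adaptor DAP10, read 8.04, 8.10 and 7.97 against 9.81, 9.98 and 10.10 (1.92 ± 0.12). CASP4, an inflammatory caspase gene, was higher by 1.52 ± 0.14, and SPP1, the osteopontin gene, by 1.60 ± 0.16. On the brightest probe, all 5 genes had every resistant array above every acute array.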
